A study of Mus musculus with 2 samples.

Results

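Genes for long noncoding RNAs were compared between PB and PB-TERRA mESCs, namely 7 snoRNA host genes (Gas5, Snhg1, Snhg3, Snhg5, Snhg6, Snhg12 and Dancr) and 3 genes for nuclear long noncoding RNAs (Malat1, Neat1 and Tug1). These 10 genes were taken by their symbols from the 18888 genes of the deposited table, and each symbol had 1 row. Both libraries came from the 46C mESC line at passages 21 to 24, kept on gelatin in conventional mESC medium. PB cells carried the empty PiggyBac vector, and PB-TERRA cells carried the same vector with telomeric repeats from which polyadenylated TERRA, the telomeric repeat-containing RNA, was expressed. PiggyBac is a transposon that inserts its cargo into the genome, and whether each line was a pool or 1 clone, and which promoter drove TERRA, are not given in the sources used here. The question for these genes was whether polyadenylated TERRA, itself a nuclear noncoding RNA, came with a different level of other noncoding RNAs.

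snoRNA host genes are transcribed for the small nucleolar RNAs in their introns. These small RNAs are cut out of the spliced introns and guide chemical modification of ribosomal RNA, or take part in cutting its precursor. The spliced host RNA that remains often has no long reading frame, and many host RNAs are degraded by nonsense-mediated decay (NMD) once ribosomes meet their short frames. Many host genes belong to the terminal oligopyrimidine class, whose RNAs begin with a run of C and T and which includes the ribosomal protein genes. Nuclear long noncoding RNAs stay largely where they are made. Malat1 lies in nuclear speckles, which store splicing factors, and Neat1 is the scaffold of paraspeckles, nuclear bodies that are sparse in pluripotent cells. Tug1 is a conserved spliced RNA with a large nuclear pool.

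The levels were read as FPKM (fragments scaled to the gene's length in kilobases and to the mapped reads of the library), and 1 library was sequenced per condition. The difference has therefore no replicate check, no test of the conditions is possible, and no p-value is given. Reads were recovered or estimated for each gene from the table, and summed over all genes to 24786839 in PB and 24930198 in PB-TERRA. A ratio of reads is given with its exact (Clopper-Pearson) 95% interval, which covers counting error only and compares these libraries, not the conditions. The cells' identity was checked with mESC markers. All 10 mESC markers listed for this check, Pou5f1, Sox2 and Nanog among them, were past 1 FPKM. Their levels summed to 3370 FPKM in PB and 3232 FPKM in PB-TERRA. They differed in both directions, with 5 higher and 5 lower in PB-TERRA. The interval of the log2 ratio lay above 0 for 4 (40%), among them Pou5f1 and Sox2, and below 0 for 4 (40%), among them Nanog. Of all genes at 1 FPKM or more in at least 1 library, the shares were 18.2% and 17.6%.

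The host genes differ in how many snoRNAs they hold. In the GENCODE M21 annotation of GRCm38, Gas5 lies on chr1:161034422-161038539 of the + strand and encloses 9 snoRNA loci, among them Snord47, Snord78 and Snord80. Snhg1 lies on chr19:8723475-8726443 of the + strand with 8 loci, among them Snord22. Snhg12, on chr4:132308623-132311024 of the + strand, encloses 4 loci (Snora16a, Snora44, Snora61 and Snord99). Snhg3, on chr4:132348014-132353686 of the − strand, holds Snora73a and Snora73b, which belong to a family that takes part in cutting the ribosomal RNA precursor. Snhg5, on chr9:88521050-88522929 of the − strand, holds Snord50a and Snord50b. Snhg6, on chr1:9941959-9944118 of the − strand, holds Snord87. Dancr, on chr5:74093060-74095406 of the + strand, holds Snora26. Malat1, on chr19:5795690-5802672, Neat1, on chr19:5824708-5845478, and Tug1, on chr11:3639785-3649673, are all on the − strand, and no snoRNA locus was enclosed by them. Malat1 and Neat1 are neighbours on chromosome 19.

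Start sites are shown because host genes differ in the letters found there. Each window runs 5′ to 3′ from 35 bases before to 25 bases from the annotated start and was read from RefSeq (GRCm38.p6). Capitals mark TATA, searched from 40 to 16 bases before the start in the longer RefSeq sequence and so from 5 bases upstream of the printed window, and the longest run of at least 6 C or T that touches the 10 bases on either side of the start. TATA reads the same on both strands, and the run was searched on the transcribed strand. Gas5 has 2 RefSeq starts, of which the downstream one is printed.
Gas5 (chr1:161035131-161035190, +): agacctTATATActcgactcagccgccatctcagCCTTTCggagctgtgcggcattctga
Snhg1 (chr19:8723452-8723511, +): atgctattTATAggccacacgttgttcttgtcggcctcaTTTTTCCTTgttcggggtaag
Snhg5 (chr9:88522873-88522932, −): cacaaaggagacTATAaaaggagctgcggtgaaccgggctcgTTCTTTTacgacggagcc
Snhg12 (chr4:132308643-132308702, +): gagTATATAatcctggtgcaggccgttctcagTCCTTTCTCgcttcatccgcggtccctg
Snhg3 (chr4:132353662-132353721, −): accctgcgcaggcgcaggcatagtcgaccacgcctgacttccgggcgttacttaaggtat
Dancr (chr5:74093025-74093084, +): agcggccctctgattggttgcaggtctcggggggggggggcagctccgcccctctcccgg
Malat1 (chr19:5802648-5802707, −): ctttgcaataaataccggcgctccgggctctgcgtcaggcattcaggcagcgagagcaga
Tug1 (chr11:3648790-3648849, −): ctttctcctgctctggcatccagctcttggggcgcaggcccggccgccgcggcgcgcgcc

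Gas5, Snhg1, Snhg5 and Snhg12 held both features, with runs of 6, 9, 7 and 9 bases. The run covered the annotated start in Gas5 and Snhg12, and it began downstream of that start in Snhg1 and Snhg5. Snhg3, Dancr, Malat1 and Tug1 held neither within these limits around the start, and nor did the upstream start of Gas5. Snhg6 and Neat1 had no window to print. Among 32851 start windows of the RefSeq table, 5.91% held TATA there, 29.2% held such a run and 1.87% held both. Of 15 other noncoding snoRNA hosts with a window, 2 (Snhg7 and Snhg8) held both. The features were chosen after the windows were seen, and a match is a description of these letters, not of a factor or a cause.

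Gas5, Snhg1, Snhg5 and Snhg12 had close to the same level in both libraries. Gas5, a growth-arrest RNA whose spliced form is a known NMD target, had 25.43 FPKM in PB and 25.94 FPKM in PB-TERRA. Snhg1 had 72.98 and 75.26 FPKM. Snhg5 had 73.03 and 71.24 FPKM. Snhg12 had 61.83 and 60.49 FPKM. Both libraries were thus nearly level for each of these 4 genes, with log2 ratios of PB-TERRA over PB (of FPKM + 0.1) of 0.03, 0.04, −0.04 and −0.03. The 95% interval of the reads ran from −0.08 to 0.14 for Gas5 and from −0.11 to 0.20 for Snhg1. It ran from −0.13 to 0.06 for Snhg5 and from −0.16 to 0.10 for Snhg12. All 4 intervals include 0, and at this depth a difference within them was not detectable. Reads were recovered as whole numbers for Snhg1, 654 in PB and 678 in PB-TERRA, and for Snhg5, 1755 and 1722. For Gas5 and Snhg12 they were estimated from FPKM and the listed length.

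**Figure D1:**
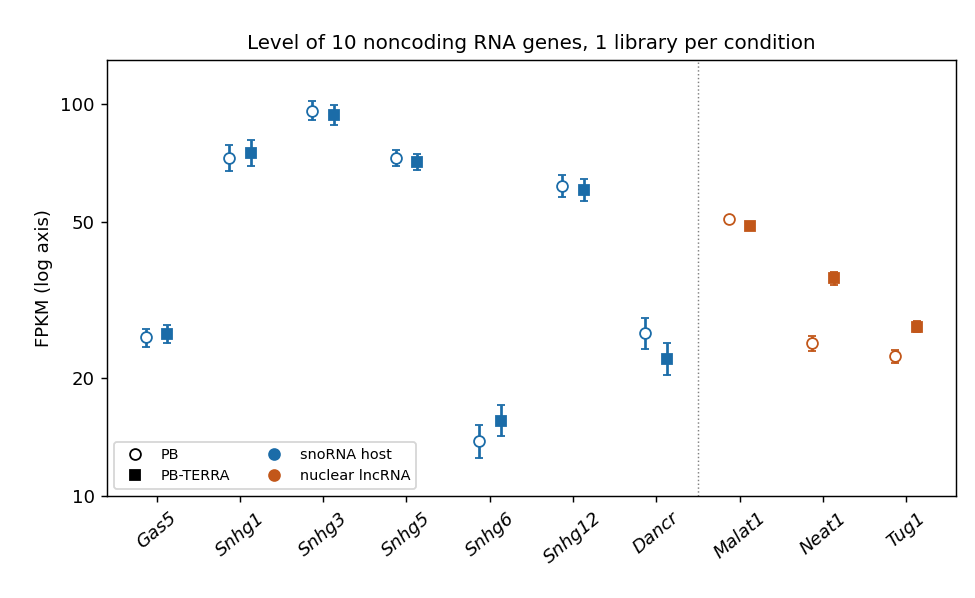
Level of the 10 genes in FPKM (vertical log axis) in the PB library (open circles) and the PB-TERRA library (filled squares), with 7 snoRNA hosts in blue and 3 nuclear lncRNAs in orange, and bars for the exact 95% Poisson interval of the reads, which covers counting error only. Host levels lie between 13.83 and 96.35 FPKM, and the widest gap between paired symbols is that of Neat1, 24.57 against 35.97 FPKM.

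Of the remaining hosts, Snhg3 held neither feature, Dancr held neither, and Snhg6 had no window. Snhg3 was the most abundant of the 10 genes per length in both libraries, with 96.35 FPKM in PB and 93.95 FPKM in PB-TERRA. Its log2 ratio was −0.04, with an interval from −0.15 to 0.08. Snhg6, the least abundant of the 10, had 13.83 and 15.60 FPKM and a log2 ratio of 0.17. Its estimated reads were 426 and 483, and the interval ran from −0.02 to 0.36, so it includes 0. Dancr, named for holding back differentiation in progenitor cells, had 26.04 FPKM in PB and 22.45 FPKM in PB-TERRA. It was the host with the lowest log2 ratio, −0.21, and with 490 and 425 estimated reads it was the only host of the 7 whose interval, −0.41 to −0.02, lay on 1 side of 0. That interval included 0 once the median of genes of the same length was taken off (−0.34 to 0.04) and when both columns were scaled to the same sum (−0.37 to 0.01). Both corrections raised the log2 ratio of Snhg6 as well, and its interval, 0.02 to 0.40 in both, then lay above 0. With the trends of GC content and length taken off, the log2 ratio was 0.08 for Snhg6 and −0.19 for Dancr. The calls on Dancr and Snhg6 therefore depend on the scaling and on the trends taken off.

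Over the 7 hosts, 3 log2 ratios were above 0 and 4 below, with a median of −0.03. Of the 12263 genes at 1 FPKM or more in at least 1 library, 48.6% were above 0 and 50.9% below, with a median of 0.00. The interval included 0 for 6 of the 7 hosts and for 64.2% of these genes. The summed level was 369 FPKM in PB and 365 FPKM in PB-TERRA. The log2 ratios of 5 hosts lay within 0.05 of 0, which held for 26.1% of these genes, many of them with fewer reads. That count also depends on the setting. Gas5 (0.07) and Snhg1 (0.08) lay outside this limit when scaled to the same sum. With same-length genes taken off, Snhg1 (0.09) and Snhg12 (0.053) did. The sign of the median is not fixed, because scaling both columns to the same sum adds 0.04 to every log2 ratio. The host median was then 0.01, with 6 hosts above 0 and 1 (Dancr) below. Of all genes past the filter, 58.9% were then above 0 and 41.1% below, with a median of 0.03, and Snhg3, Snhg5 and Snhg12 lay just above 0.

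Neat1 and Tug1 were higher in the PB-TERRA library, and Malat1 was not. Neat1 had 24.57 FPKM in PB and 35.97 FPKM in PB-TERRA. Its recovered reads were 1882 and 2772, the log2 ratio was 0.55 (1.46-fold), and the interval ran from 0.46 to 0.64. Of the genes past 1 FPKM, 98.02% had a lower log2 ratio than Neat1. Tug1 had 22.77 and 27.10 FPKM, or 2853 and 3417 estimated reads, a log2 ratio of 0.25 (1.19-fold) and an interval from 0.18 to 0.32. That interval included 0 (−0.07 to 0.57) with reads reckoned at the shortest annotated transcript, and the log2 ratio of Tug1 was 0.15 with the trends of GC content and length taken off. Tug1 stood at the percentile 92.0 of log2 ratios. Malat1, which is spliced little if at all, had 50.91 and 49.03 FPKM. Its recovered reads, 8666 and 8399, were the most of any of the 10 genes, and its interval was accordingly the narrowest, from −0.10 to −0.01 around a log2 ratio of −0.05. Its difference was 0.96-fold in size and was no longer past counting error at 99% confidence or with both columns scaled to the same sum (−0.06 to 0.03). With same-length genes taken off, the interval of Malat1 stayed below 0 (−0.13 to −0.04). With the trends of GC content and length taken off, its log2 ratio was −0.15.

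**Figure D2:**
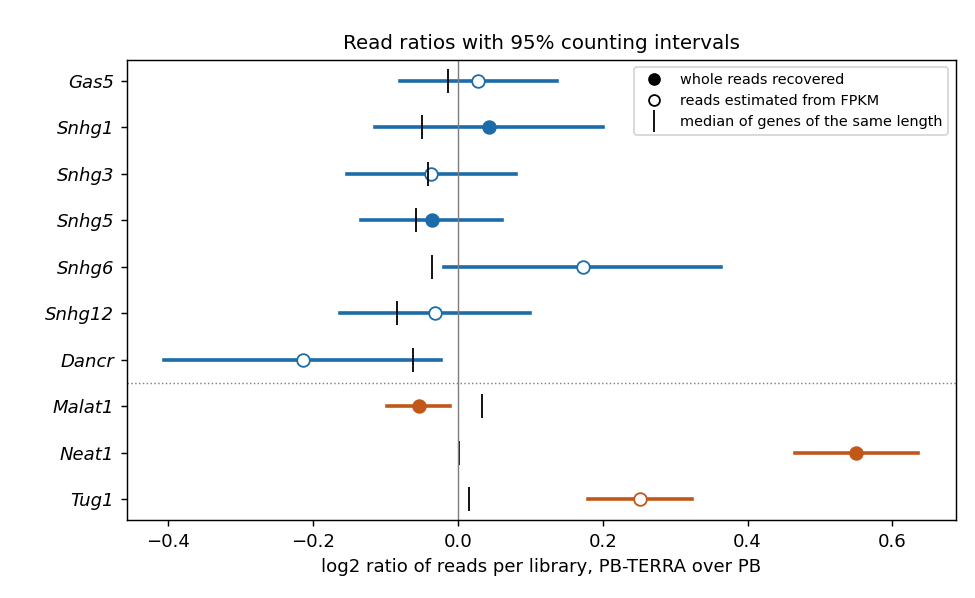
Log2 ratio of reads, PB-TERRA over PB (horizontal axis), for the 7 snoRNA hosts (blue, above the dotted line) and 3 nuclear lncRNAs (orange), with bars for the 95% counting interval, filled points for recovered and open points for estimated reads, and black ticks for the median of genes of the same length. Neat1 and Tug1 lie to the right of 0, Malat1 and Dancr lie to its left, and 6 host intervals cross it, while scaling to the same sum moves every point by 0.04 to the right.

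Within a library, scaling cancels, so ratios between the nuclear RNAs were also taken. The level of Neat1 was 0.483 of that of Malat1 in PB and 0.734 in PB-TERRA. Tug1 was at 0.447 of Malat1 in PB and 0.553 in PB-TERRA. Neat1 was thus higher than in PB relative to both other nuclear RNAs, at 1.08 times Tug1 in PB and 1.33 times in PB-TERRA. The order of the 10 levels changed between the libraries in its lower part. In PB the order per length was Snhg3, Snhg5, Snhg1, Snhg12, Malat1, Dancr, Gas5, Neat1, Tug1 and Snhg6. Neighbours from Dancr to Tug1 were not separated beyond their counting intervals, and neither were Snhg5 and Snhg1. In PB-TERRA the order was Snhg3, Snhg1, Snhg5, Snhg12, Malat1, Neat1, Tug1, Gas5, Dancr and Snhg6. Dancr thus stood 3 places lower than in PB, and Neat1 and Tug1 stood 2 places higher each. Neat1 was separated from Tug1 below it, while Tug1 and Gas5, Gas5 and Dancr, and Snhg1 and Snhg5 were not separated.

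The 2 kinds of RNA can be set beside each other as a description. The median log2 ratio was −0.03 over 7 hosts and 0.25 over the 3 nuclear RNAs, so the host median was 0.28 lower (the difference, host minus nuclear, was −0.28). The ranges overlap, because Malat1 lies below 6 of the 7 hosts. The nuclear RNAs summed to 98.25 FPKM in PB and 112.1 FPKM in PB-TERRA. At an absolute log2 ratio of at least 1, none of the 10 genes was called (0 of 10), against 0.913% of the 12263 genes past the filter. At a log2 ratio of 0.5 or more, 1 of 10 (Neat1) was called, against 2.3% of these genes, and at −0.5 or less 0 of 10 were called, against 2.37%. The counting interval lay above 0 for 2 of the 10 (Neat1 and Tug1), with a background of 18.2%, and below 0 for 2 (Malat1 and Dancr), with a background of 17.6%. An interval on 1 side of 0 is therefore common in this pair of libraries and does not mark these genes out.

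Gene length moved with the log2 ratio in these libraries and differs between the kinds of RNA. Among genes of at least 5 FPKM in both libraries, the shortest decile (154 to 1061 bases) had a median log2 ratio of −0.06, and the longest decile (6038 to 22408 bases) one of 0.05. The listed lengths of the hosts ran from 476 bases (Snhg1) to 2303 bases (Gas5), and those of Malat1, Neat1 and Tug1 were 6982, 3204 and 5169 bases. With the median of same-length genes taken off, the host median became 0.04, the nuclear median 0.24 and their difference −0.19. With GC content taken off as well, the difference was −0.15, Tug1 fell to 0.15, Malat1 lay at −0.15 and Neat1 at 0.57. Neat1 and Tug1 kept their side of 0 under every one of these settings. The part of length or GC content in the remaining difference was not tested.

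**Figure D3:**
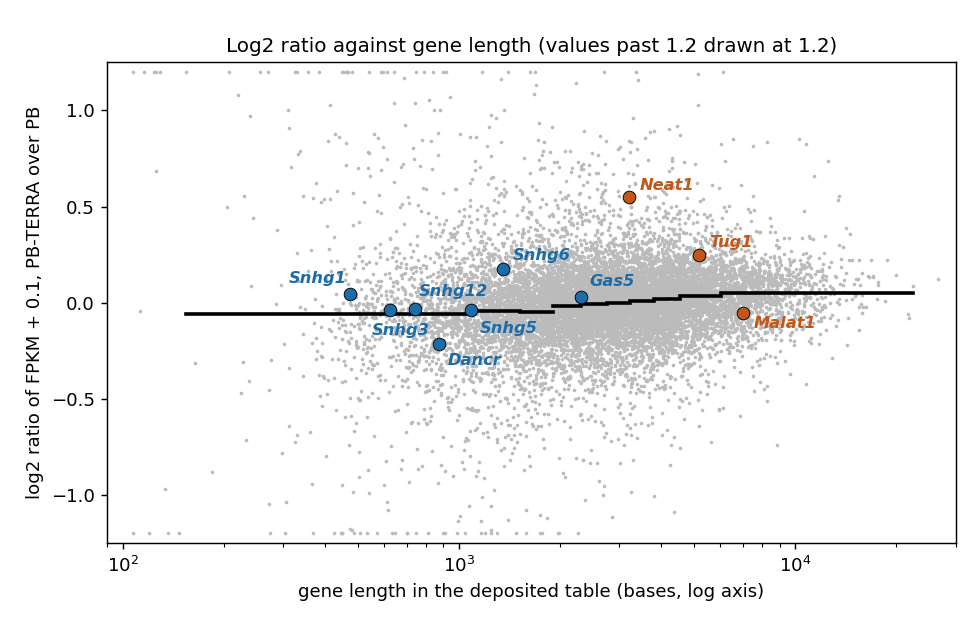
Log2 ratio of FPKM + 0.1, PB-TERRA over PB (vertical axis), against the listed gene length in bases (log axis) for 12263 genes (grey), with the 10 noncoding genes in blue (hosts) and orange (nuclear) and black bars for the median of each length decile. The black bars climb from −0.06 to 0.05, 6 of the 7 hosts are listed at 1356 bases or less with Gas5 at 2303 bases, and Neat1 lies above most genes of its length.

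Several features of these loci limit what 1 row per gene can show. The annotated Neat1 locus spans 20771 bases and holds transcripts of 711 to 20771 bases, while the table lists 3204 bases, so its FPKM does not separate the short, polyadenylated form from the long form that builds paraspeckles. The library kit selects polyadenylated RNA, and Malat1 and long Neat1 end without a usual poly(A) tail. Other RNAs without such a tail were low in both libraries, 12.14 FPKM in PB and 11.01 FPKM in PB-TERRA summed over 8 genes such as Rn7sk and Rpph1. For Gas5, Snhg3, Snhg6, Snhg12, Dancr and Tug1 no whole pair of reads matched, and the number of annotated transcripts ran as high as 25 for Gas5. When the reads of these 6 genes were reckoned at their shortest annotated transcript instead, the intervals of Dancr and Tug1 included 0.

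Some exons are shared with other genes, and the kit does not mark strand. Snhg3 shares 135 exon bases (13.7% of its own) with Rcc1 on the same strand, which had 79.00 FPKM in PB and 79.92 FPKM in PB-TERRA, and 705 bases (71.5%) with the antisense noncoding gene Gm17300. Snhg6 shares 127 bases (11.1%) with the antisense gene Mcmdc2, listed at 0.61 and 0.78 FPKM. Tug1 shares 483 bases (4.96%) with the antisense gene Morc2a, at 29.64 and 31.73 FPKM. Malat1 shares 453 bases (6.49%) with the antisense entry Gm37376, and Dancr shares 92 bases (3.92%) with the antisense entry Gm43416. Reads of these overlaps cannot be told apart.

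The snoRNAs themselves were mostly out of reach of this library type. Of the snoRNAs held by the 7 hosts, Snord22 (in Snhg1), Snora73a (in Snhg3) and Snora16a (in Snhg12) had rows in the table. Snora73a had 14 recovered reads in PB and 20 in PB-TERRA, with an interval from −0.55 to 1.60. Snord22 had 1 and 2 estimated reads, and Snora16a had 1 and 0. These counts cannot show whether the processed snoRNAs followed their hosts.

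Related genes were described by lists. Of 11 other noncoding hosts past 1 FPKM, 6 had a log2 ratio above 0 and 5 below, with a median of 0.00, and the interval lay above 0 for 3 and below 0 for 2. Over all genes past the filter the shares were 18.2% above and 17.6% below 0. The list was written by hand and its members are not all annotated noncoding snoRNA hosts. Mir17hg, Snhg7 and Snhg4 were not matched to a snoRNA locus in the annotation, and Snhg11, which holds 2, is typed there as protein-coding. The 3 genes with an interval above 0 were Mir17hg, Snhg7 and Snhg11. Mir17hg, which hosts a microRNA cluster, was highest at 0.26 (25.52 FPKM in PB and 30.60 FPKM in PB-TERRA). Snhg8, which holds TATA and the run around its start, was lowest at −0.42, with 41.51 and 31.10 FPKM. It had 343 and 259 estimated reads and an interval from −0.65 to −0.18. Snhg7, which also holds both, lay at 0.20 (interval 0.05 to 0.36), so the features at the start did not go with one level of difference. When hosts were taken instead from the annotation, as genes not known to code for protein that enclose a snoRNA on their own strand, 14 others were past 1 FPKM. Of these, 4 were above 0 and 10 below, against 48.6% and 50.9% of all genes past the filter. Their median was −0.13 before and −0.10 after same-length genes were taken off. For 5 the interval lay below 0 and for 0 above, with a background of 17.6% and 18.2% over all genes past the filter. With the 7 hosts added, 7 of the 21 annotated hosts were above 0 and 14 below. Scaled to the same sum, 11 of the 21 were above 0 and 10 below, against 58.9% and 41.1% of all genes.

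Protein-coding hosts, included many genes for ribosomal proteins and translation factors. Of 41 past 1 FPKM, 13 had a log2 ratio above 0 and 28 below, with a median of −0.06. Of all genes past the filter, 48.6% were above 0 and 50.9% below. A snoRNA locus was matched in the annotation for 40 of the 41, with Hsp90ab1 as the exception. The interval lay above 0 for 7 (17.1%) and below 0 for 23 (56.1%), against 18.2% and 17.6% of all genes, and the reads of these abundant genes make their intervals narrow. Rack1, a ribosomal scaffold protein that holds 3 snoRNA loci, was lowest at −0.34, with 1253.68 FPKM in PB and 989.76 FPKM in PB-TERRA. Rpl21, a protein of the large ribosomal subunit, was highest at 0.12, with 269.10 and 291.51 FPKM. Ribosomal protein genes have many near-identical pseudogenes, so their values are uncertain. With same-length genes taken off, the median of this list was −0.02, and with both columns scaled to the same sum it was −0.02 as well. So scaled, 17 of its genes were above 0 and 24 below, against 58.9% and 41.1% of all genes past the filter. Over all 210 protein-coding hosts of the annotation that were past 1 FPKM, the median was 0.00, with 106 above and 104 below 0. Scaled to the same sum, 127 of the 210 were above 0 and 83 below, beside the same 58.9% and 41.1% of all genes. In that full list the interval lay above 0 for 47 (22.4%) and below 0 for 56 (26.7%), so the share of 56.1% belongs to the shorter, hand-written list.

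**Figure D4:**
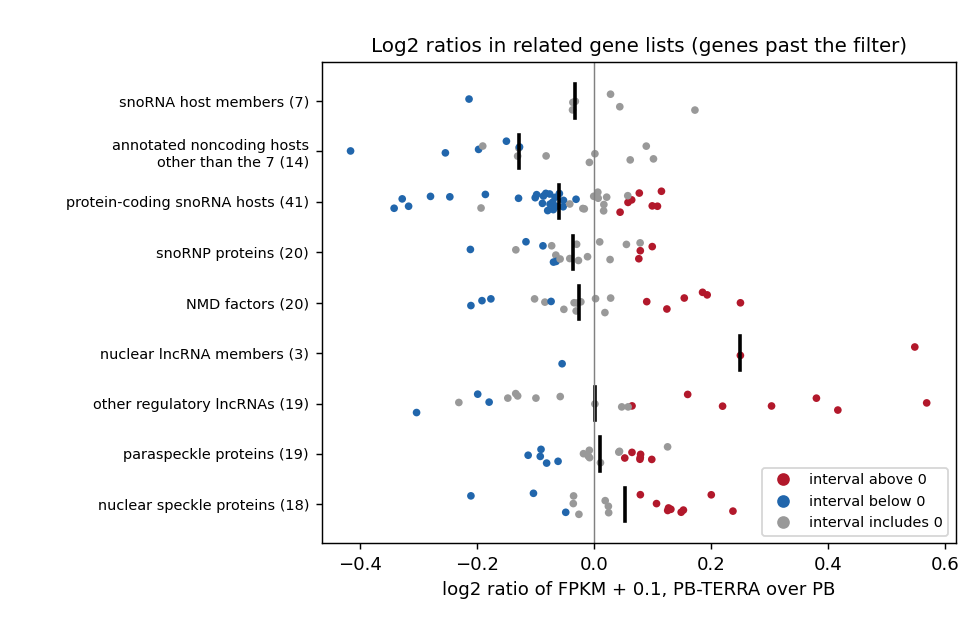
Log2 ratio of FPKM + 0.1, PB-TERRA over PB (horizontal axis), for each gene past 1 FPKM in 9 lists (vertical axis, number of genes in parentheses), with points in red or blue where the 95% counting interval lay above or below 0, grey where it included 0, and a black bar at the median of each list. The 7 hosts sit between −0.21 and 0.17, Neat1 lies at 0.55, and 23 of 41 protein-coding hosts are blue.

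Proteins that act with host RNAs were also listed. The snoRNP list, proteins that form the particles around snoRNAs, had 7 of 20 genes above 0 and 13 below, with a median of −0.04. Its extremes were Nop58, a core protein of box C/D particles, at 0.10, and Nhp2, a core protein of box H/ACA particles, at −0.21 (213.00 and 184.03 FPKM). Of 20 NMD factors, 9 were above and 11 below 0, with a median of −0.03 and intervals above 0 for 6 (30%) and below 0 for 4 (20%), against 18.2% and 17.6% of all genes past the filter. Upf2, which bridges NMD and the exon junction complex, had 14.68 and 17.48 FPKM, a log2 ratio of 0.25, and Rnps1, a protein deposited at exon junctions, had 239.15 and 206.75 FPKM, a log2 ratio of −0.21. Scaled to the same sum, the snoRNP list had 10 above and 10 below 0, and the NMD list 13 above and 7 below, against 58.9% above and 41.1% below for all genes past the filter, so neither list has a fixed direction.

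For paraspeckle proteins the median was 0.01, with 10 of 19 genes above 0 and 9 below, and intervals above 0 for 6 (31.6%) and below 0 for 5 (26.3%), beside 18.2% and 17.6% of all genes past the filter. Pspc1, one of the proteins that define paraspeckles, was lowest at −0.11 (47.60 and 44.03 FPKM), and Hnrnph3 was highest at 0.13, with an interval that includes 0. The difference in Neat1 was therefore larger than that of every paraspeckle protein past the filter. Of 18 speckle proteins, 12 were above 0 and 6 below, with a median of 0.05 and intervals above 0 for 9 (50%) and below 0 for 3 (16.7%), beside the same 18.2% and 17.6%. Genes of these lists have many reads and therefore narrow intervals. Acin1, a splicing-associated protein, was highest at 0.24, and Rnps1, also an NMD factor, was lowest at −0.21 (interval −0.25 to −0.17). Scaled to the same sum, 14 of 19 paraspeckle and 15 of 18 speckle proteins were above 0, against 58.9% of all genes past the filter.

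Other regulatory long noncoding RNAs went both ways. Of 30 with a row, 19 were past 1 FPKM, 10 above 0 and 9 below, with a median of 0.00 and intervals above 0 for 7 (36.8%) and below 0 for 3 (15.8%), against 18.2% and 17.6% of all genes past the filter. H19, an imprinted RNA, was highest at 0.57 but low in level, with 1.35 FPKM in PB and 2.05 FPKM in PB-TERRA and 73 and 111 reads (interval 0.16 to 1.04). Meg3, also imprinted and largely nuclear, was lowest at −0.30, with 91.57 and 74.22 FPKM and an interval from −0.35 to −0.25.

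Markers of other cell types differed between the libraries as well. Primitive endoderm markers, of a lineage that mESC cultures can form, had rows for 10 of 10 genes. With no filter, 9 log2 ratios were above 0 and 1 (Afp) below, and 6 intervals lay above 0 and 0 below. For this and the next 2 marker lists, the shares over all genes past the filter were 18.2% above and 17.6% below 0. Their summed level was 13.75 FPKM in PB and 18.60 FPKM in PB-TERRA. Gata6 had 1.22 and 2.26 FPKM, and Gata4 had 1.86 and 2.31 FPKM with an interval that includes 0. Of 9 fibroblast markers in the table, 4 were above 0 and 4 below, with intervals above 0 for 3 and below 0 for 1, and the sum was 20.34 and 24.18 FPKM. Col1a1, with 7.99 and 12.14 FPKM, carried most of that difference, while Lum, Postn and Col6a3 were under 0.1 FPKM in both libraries. Of 10 neural markers, 4 were above 0 and 4 below, with intervals above 0 for 1 and below 0 for 2. The levels past 1 FPKM were those of Nes at 27.30 and 20.93 FPKM, Tubb3 at 57.66 and 51.48 FPKM and Sox1 at 1.06 and 1.56 FPKM. The sum was 86.99 and 74.84 FPKM, and Dcx was listed at the lowest value of 0.01 in both. Their part in the differences of Neat1, Tug1 and Dancr was not tested. More cells with a given RNA and more of it per cell cannot be told apart in bulk RNA.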

How the data were processed

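The authors sequenced 1 library of PB and 1 of PB-TERRA cells (46C mESCs), prepared with a TruSeq RNA kit, on BGISEQ500. The submitters' processing notes name HISAT, Cufflinks and mm9, with no role or version, and the annotation is not given in the sources used here. The authors deposited 1 table. Its expression values were read as FPKM, computed by the authors with 2 decimals and a lowest value of 0.01. The header names no unit, and this reading rests on the values. The authors' own fold change, adjusted p-value and direction (3 columns) were not used. The deposited p-value of the authors' PossionDis test was used to recover reads, and no p-value is reported.

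The members and gene lists were chosen with earlier results of these data known. The log2 ratio of FPKM + 0.1 was the main measure, and genes were counted where either library reached 1 FPKM and called at an absolute log2 ratio of 1 or more. PB-TERRA held 50.155% of the reads, from 732 genes at the lowest value in PB. Whole reads were searched within 0.5% of FPKM times length less a fitted 115 bases, with a relative tolerance of 1.2e-05 on the p-value. Of 11836 genes past the filter with 10 to 10000 reads, 77.9% gave exactly 1 pair and 21.3% none. Other reads are estimates rounded to whole numbers. This search and the intervals were tested on simulated data. Intervals are exact, for a share of reads, and cover counting error only.

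Same-length medians used 50 bins over 8496 genes, and GC content (10 by 10 bins with length) was found for 97.6% of these. Positions, snoRNA loci and GC content come from GENCODE M21 on GRCm38, which is not the authors' build. The plan was to name, of each list, the genes with the highest and lowest log2 ratio at 50 or more reads, and the marker genes. It was not followed for every list. Only some marker genes were named, and the extremes of the marker lists, the annotated host lists and the snoRNA rows were not given as such. Snhg4, Snhg7, Snhg11, Hsp90ab1, Rn7sk, Rpph1, the overlapping genes and the snoRNAs were named after their values were seen. Alternatives were the pseudocount, scaling, filter, threshold, confidence level and trends. Computations ran in Python 3.11.15 with scipy 1.17.1, numpy 2.4.6 and pandas 2.3.3, and plots were drawn with matplotlib 3.10.9.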

Additional observations from a re-analysis of the deposited data

How the results depend on the processing

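No paired analysis was possible because each condition has 1 library, and no replicate could be left out. The medians of the hosts and of the nuclear RNAs, and each member's log2 ratio, moved by less than their counting error under other pseudocounts, median-of-ratios scaling, scaling to the same sum and the length trend, with the exception of the trend of GC content with length. That trend moved the nuclear median to 0.15 and with it Tug1 (0.15), and Malat1 to −0.15. Scaling to the same sum added 0.04 to the log2 ratio of every gene, and the host median was then 0.01. Genes past the fold threshold numbered 112, against 513 with no filter, 17 with a mean of at least 5 FPKM, 45 with a pseudocount of 1 and 573 with a threshold of 0.5. Members past the threshold numbered 0, and 1 with a threshold of 0.5. Members beyond counting error numbered 4, and 2 at 99% confidence (Neat1 and Tug1) or with reads at the shortest annotated transcript (Neat1 and Malat1), an alternative chosen after seeing the data. No direction that was past counting error was reversed. Depth limits the hosts most, since 425 to 490 reads leave Snhg6 and Dancr with the widest intervals of the 10 genes.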

Other observations

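Meg3, Rian and Mirg are neighbours transcribed from the maternal copy of the imprinted Dlk1-Dio3 locus, and Rian holds 13 annotated snoRNA loci. The log2 ratio was −0.30 for Meg3, −0.15 for Rian (89.03 FPKM in PB and 80.27 FPKM in PB-TERRA, interval −0.20 to −0.10) and −0.06 for Mirg (21.43 and 20.59 FPKM, interval −0.18 to 0.06). All 3 were below 0, and the interval of Mirg includes 0. Kcnq1ot1, an unspliced nuclear RNA listed at 83437 bases, was under the filter with 0.56 and 0.78 FPKM, but its length gave it 1156 and 1618 recovered reads and an interval from 0.37 to 0.59. These genes were named after their values were seen.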
